A study of Mus musculus with 4 samples.

Results

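The insulin-like growth factor (IGF) axis was examined in the nasal mucosa of young adult and aged mice through its 10 ligand, receptor and binding protein genes. These were *Igf1*, *Igf2*, *Igf1r*, *Igf2r*, *Igfbp2*, *Igfbp3*, *Igfbp4*, *Igfbp5*, *Igfbp6* and *Igfbp7*. They were read by 13 of the 56605 non-control probes of the array, chosen because the RefSeq accession of each probe maps to one of these genes, and they make up 10 of the 45604 genes tested. Total RNA came from male C57BL/6J mice, compared by age alone and aged 8 weeks (young adult) or 16 months (aged). RNA of 5 mice was pooled for each of 4 one-color arrays, with 2 arrays per age, which the labels call experimental replicates, and no other difference between the groups in the labels. A pooled array shows no spread between mice, and whether the pools of an age came from separate mice is not given in the sources used here, so the *P*-values measure only the spread between arrays. The study's tally of animals per age for expression work is too small to fill both pools without reusing some. Whether that tally covers the arrays is not stated. The 2 arrays of an age are therefore not taken as independent biological replicates. An expression level below is a background-corrected, quantile-normalized intensity, and it can be compared between arrays for a gene but not between genes.

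IGF-1 and IGF-2 are secreted growth factors that act mainly through the IGF-1 receptor, a tyrosine kinase that signals through insulin receptor substrates to the PI3K-Akt and Ras-ERK pathways. The IGF-2 receptor lacks such a kinase and removes IGF-2 from the cell surface, while the IGF-binding proteins carry the ligands in tissue fluid and either limit or prolong their access to receptors. In the olfactory mucosa, IGF signaling is known for its part in guiding the axons of olfactory receptor neurons (ORNs) to the olfactory bulb.

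Mature ORNs define the labelled tissue, and all 7 of their markers (*Omp*, *Cnga2*, *Adcy3* and others) were well above background on all 4 arrays. The description of every sample and the name of the field that holds its age refer to silica aspiration, the former also to lung, whereas titles, source names and protocols give nasal tissue and age. None of the arrays read the lung surfactant genes *Sftpb* and *Sftpa1* well above background. The other 3 lung markers were detected on all arrays, with *Sftpc* at 370 and 349 in young adult and at 205 and 220 in aged mice. *Sftpd* was bright, at 21910 and 20078 in young adult and at 19747 and 17811 in aged mice. *Ager* was at 326 and 332 against 266 and 274. Between 63.1% and 76.8% of the spots of an array were well above background, and correlations across genes were 0.987 within each age and 0.982 to 0.989 across ages. The first young adult array and the first aged array shared a slide, and each of the other two arrays was on a slide of its own. Of 9 pituitary genes, 2 hormone genes were higher in the aged pools (adjusted *P* = 0.102 for each, limma), where *Prl* reached 8062 ± 132 against 260 ± 31.7 in young adult mice and *Gh* reached 331 ± 6.98 (SD, n = 2), at least 8.90-fold higher, since the young adult arrays did not read *Gh* well above background. The summed level of these 9 genes was 1237 to 1283 on the young adult and 9348 to 9854 on the aged arrays. Most of the aged sum was *Prl* alone, at 8155 and 7969. The other 7 genes were not called, and over all genes 1.65% were called higher. Both aged arrays read above both young adult arrays for 4 of the 9 genes and below for 1. Over all genes these shares were 24.2% and 21.8%. *Cga*, among the 4, was at 37.1 and 22.5 against 107 and 78.7 (log2 fold change 1.67, adjusted *P* = 0.260, limma). It was well above background on 1 array only. The 2 genes with a log2 fold change below 0, *Pou1f1* and *Ghrhr*, were so on 0 and 1 arrays.

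A gene was called when limma gave *P* below 0.05 and a Benjamini-Hochberg false discovery rate (FDR) below 0.25 over all 45604 genes. By this rule 3 of the 10 IGF axis genes, *Igf1*, *Igfbp2* and *Igfbp7*, were downregulated in aged mice and 0 were upregulated. Over all genes, 2.33% were called lower and 1.65% higher. Without overlap, the aged arrays read lower than the young adult arrays for 7 of the 10 genes and higher for 1 gene, and over all genes these shares were 21.8% and 24.2%. Among genes with a probe well above background on all arrays, as all 10 had, 3.07% were called lower. At an unadjusted *P* below 0.05 alone, 4 of the 10 genes were lower in aged mice, the fourth being *Igfbp4*, against 7.08% of all genes. The median log2 fold change was -0.26 for the 10 genes and 0.01 for all genes tested.

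The promoter windows of the 3 downregulated genes are shown because these genes were lower together, and they cover the 250 bases before the annotated start in RefSeq (build GRCm38.p6), read 5′ to 3′ on the strand of the gene. The *Igf1* window is chr10:87860861-87861110 on the plus strand, the *Igfbp2* window is chr1:72824230-72824479 on the plus strand, and the *Igfbp7* window is chr5:77408046-77408295 on the minus strand. Capitals mark matches on either strand to any of 3 core promoter motifs, which do not overlap one another here. The TATA box was searched as TATAAA. The GC box, known as a binding site of Sp1, was searched as GGGCGG. The CCAAT box was searched by the letters of its name.
Igf1: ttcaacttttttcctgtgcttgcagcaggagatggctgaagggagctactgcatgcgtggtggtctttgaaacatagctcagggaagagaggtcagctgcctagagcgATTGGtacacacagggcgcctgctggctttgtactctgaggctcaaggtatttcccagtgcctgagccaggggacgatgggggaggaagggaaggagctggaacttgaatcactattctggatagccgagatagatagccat
Igfbp2: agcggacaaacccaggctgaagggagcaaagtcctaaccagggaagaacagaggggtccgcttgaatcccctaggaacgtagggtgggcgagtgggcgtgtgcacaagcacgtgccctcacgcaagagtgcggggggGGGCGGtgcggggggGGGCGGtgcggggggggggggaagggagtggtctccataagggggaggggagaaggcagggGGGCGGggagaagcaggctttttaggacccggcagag
Igfbp7: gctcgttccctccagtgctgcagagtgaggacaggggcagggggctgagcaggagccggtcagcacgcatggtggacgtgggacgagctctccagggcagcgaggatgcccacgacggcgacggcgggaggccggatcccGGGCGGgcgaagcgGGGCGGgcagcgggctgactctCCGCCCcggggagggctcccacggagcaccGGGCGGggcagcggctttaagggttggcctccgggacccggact
The *Igf1* window held 5 CpG dinucleotides and a CCAAT match on the opposite strand, 142 to 138 bases before the start, and no GC box match. The *Igfbp2* window held 14 CpG and 3 GC box matches, and the *Igfbp7* window held 26 CpG and 4 GC box matches, of which the one 74 to 69 bases before the start was on the opposite strand. Among 32851 RefSeq promoters of the same length, 32.7% held a GC box match, 33.8% a CCAAT match and 12.4% a TATA match, with a median of 6 CpG. No TATA match lay in these 3 windows, and 12 of the 14 windows of the 10 genes had none. The other two were *Igfbp4*, with a match 28 to 23 bases before the start, and *Igfbp6*. RefSeq gives *Igfbp2* a further start and *Igf2* 4 starts, the *Igf1* window lies inside the span that the same table gives for that gene, and the arrays do not show which start was used.

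**Figure D1:**
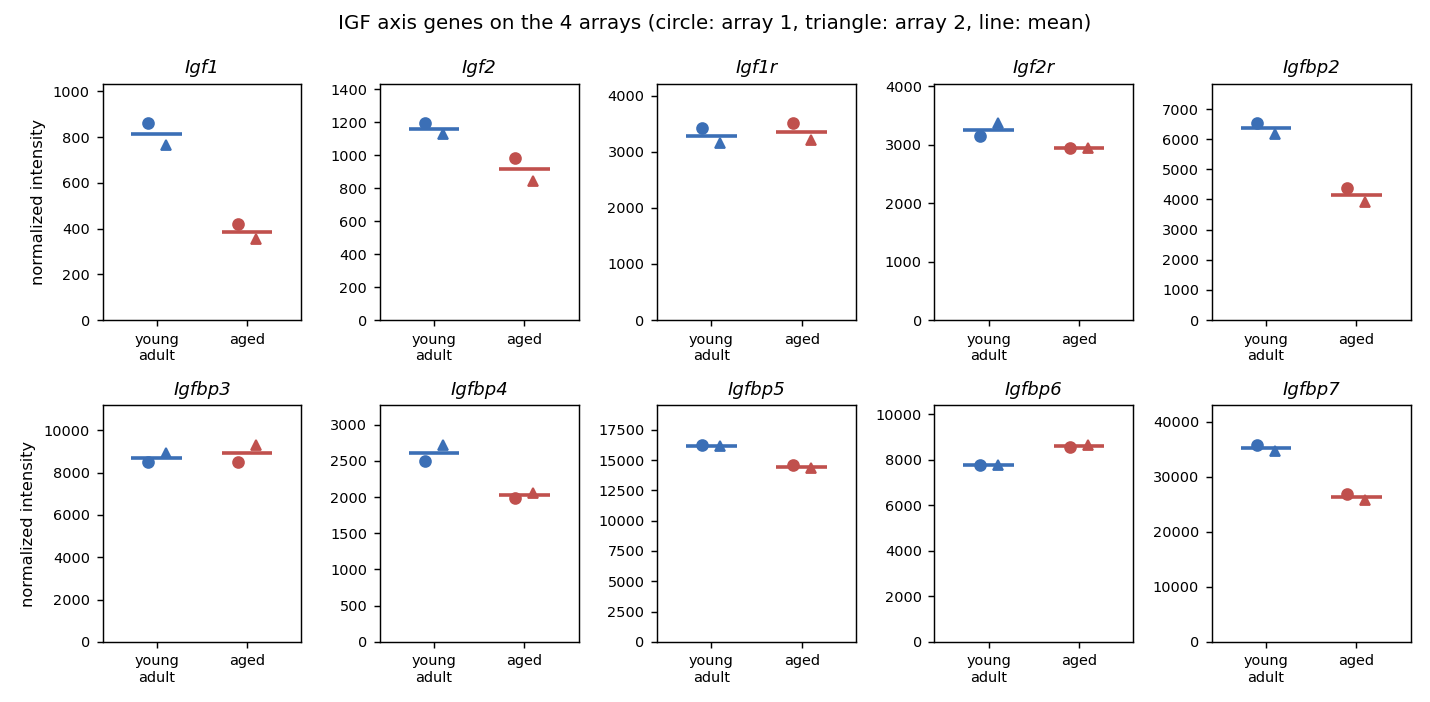
Normalized intensity (linear scale from 0, a scale of its own for each gene) of the 10 IGF axis genes in young adult and aged mice. Circles and triangles are the first and second array of an age and lines are means (n = 2). *Igf1* fell from 813 to 386, while the arrays of *Igf1r* and *Igfbp3* overlapped between ages.

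Of the ligands, *Igf1*, which promotes growth and survival of many cell types, was downregulated in aged mice and *Igf2* was not called. The young adult arrays gave expression levels of 861 and 765 and the aged arrays gave 419 and 354, so that the groups did not overlap and lay far apart beside the gap within each age. The mean fell from 813 ± 67.9 to 386 ± 46.0 (SD, n = 2) with age, a 2.11-fold lower level. The log2 fold change was -1.08 (SE 0.14, 95% interval -1.48 to -0.67, FDR = 0.201, limma), and 0.743% of all genes had a value as low or lower. *Igf1* was lower by a similar amount in the comparison within the shared slide (log2 difference -1.04) and between the other slides (-1.11). Its probe was the dimmest of the called IGF axis genes, at no less than 6.50 times the local background on any array. In whole mucosa, fewer cells of a type and less RNA per cell cannot be told apart, for this gene and for all others below.

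*Igf2* encodes the ligand best known for fetal growth. It was read at 1195 and 1128 in young adult mice, against 985 and 841 in the aged pools. Both aged values were lower, with means of 1162 ± 47.1 and 913 ± 102 (SD, n = 2), but the gene did not pass the test (log2 fold change -0.35, 95% interval -0.71 to 0.0041, FDR = 0.385, limma). Its 2 probes gave log2 fold changes of -0.38 (FDR = 0.251 over all probes) and -0.32 (FDR = 0.559), and the second was the dimmest of the 13 probes, at 5.94 times the local background on its weakest array.

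Of the receptors, neither passed the test. *Igf1r* was at 3420 and 3157 in young adult mice, against 3515 and 3204 with age, so the groups overlapped. Its log2 fold change was 0.03 (95% interval -0.27 to 0.33, FDR = 0.918, limma), a value whose sign turned when only the brighter of its 2 probes was used (-0.0072) or the second young adult or first aged array was left out. The interval leaves room for a change larger than that seen for *Igfbp6* or *Igf2r* in either direction. *Igf2r* was at 3140 and 3368 in young adult mice and at 2942 and 2941 in aged mice, with both aged arrays below (log2 fold change -0.14, 95% interval -0.39 to 0.10, FDR = 0.561).

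**Figure D2:**
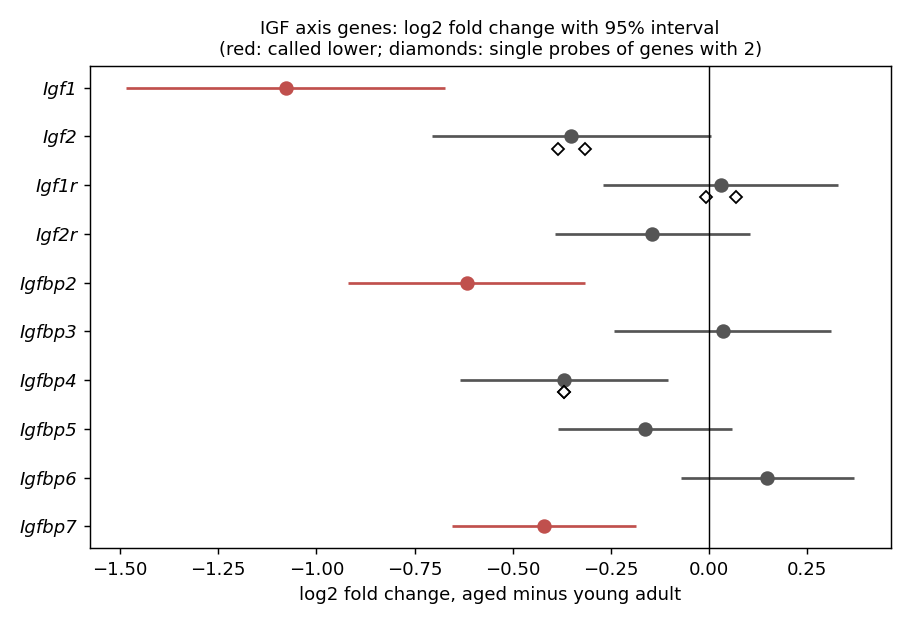
Log2 fold change (aged minus young adult, x axis) of the IGF axis genes with 95% intervals from limma. Red marks the 3 genes called lower, grey the 7 not called, and diamonds the separate probes of genes with 2 probes, which for *Igfbp4* coincide at -0.37. The interval of *Igfbp4* also lies below 0, although its FDR of 0.292 missed the threshold.

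Among the binding proteins, *Igfbp2* and *Igfbp7* were downregulated in aged mice. *Igfbp2*, which encodes a carrier of both ligands, was at 6535 and 6186 in the young adult pools and dropped to 4384 and 3919 in the aged pools, with no overlap. The mean fell from 6360 ± 247 to 4151 ± 329 (SD, n = 2), a 1.53-fold lower level (log2 fold change -0.62, SE 0.10, 95% interval -0.92 to -0.32, FDR = 0.226, limma). Within the shared slide the difference was -0.58, and between the other slides it was -0.66.

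*Igfbp7* encodes a secreted protein of vessel walls and matrix that binds IGFs only weakly. It was at 35849 and 34662 in young adult mice and at 26843 and 25866 in aged mice, again with no overlap and with little spread inside each age. The mean fell from 35255 ± 840 to 26355 ± 691 (SD, n = 2), a 1.34-fold lower level (log2 fold change -0.42, SE 0.08, 95% interval -0.65 to -0.18, FDR = 0.247, limma). This was the called gene nearest to the FDR threshold, and its call was lost when arrays were scaled to the 75th percentile in place of quantile normalization (FDR = 0.258) or in the scanner's processed signal scaled in that way (FDR = 0.286). The difference within the shared slide was -0.42, as it was between the other slides.

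*Igfbp4*, whose product mainly restrains IGF action and is cleaved by the protease PAPP-A, was at 2505 and 2723 in young adult mice and at 1988 and 2057 in aged mice. Both aged values were lower and its 2 probes gave the same log2 fold change of -0.37, but the FDR missed the threshold (95% interval -0.63 to -0.10, FDR = 0.292, limma). *Igfbp5*, whose product binds to matrix, was at 16273 and 16147 against 14607 and 14348. These groups did not overlap, the difference was small (log2 fold change -0.16, 95% interval -0.39 to 0.059) and it did not pass the test (FDR = 0.483).

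The remaining pair of binding proteins, *Igfbp6* and *Igfbp3*, did not pass the test in either direction. *Igfbp6*, whose product prefers IGF-2 as its ligand, was the one gene of the 10 with both aged arrays (8564 and 8660) above both young adult arrays (7786 and 7752). Its log2 fold change was 0.15 (95% interval -0.072 to 0.37) and it did not pass the test (FDR = 0.513, limma). *Igfbp3*, the main carrier of IGFs in the circulation, was at 8492 and 8915 in young adult mice and at 8524 and 9319 in aged mice, with overlapping groups. Its log2 fold change of 0.03 (95% interval -0.24 to 0.31, FDR = 0.897) turned sign when the first young adult or the second aged array was left out.

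Probe by probe, 3 of the 13 probes were called lower and 0 higher, against 2.65% and 1.84% of all 56593 probes tested. The called probes are the only probes of *Igf1*, *Igfbp2* and *Igfbp7*, so this count repeats the gene calls and adds no further evidence. No probe of *Igf2*, *Igf1r* or *Igfbp4*, the genes with more than 1 probe, was called. All 13 were well above background on all 4 arrays, none was saturated, and each was spotted once per array. Under the further limits of a mean expression level of at least 100 and a fold change of at least 1.5, *Igf1* and *Igfbp2* remained as downregulated genes, against 1.15% of all genes. When any 1 of the 4 arrays was left out, the log2 fold change of *Igf1* ranged from -1.20 to -0.96. That of *Igfbp2* ranged from -0.70 to -0.54 and that of *Igfbp7* from -0.45 to -0.39. In those fits no gene of the whole array was called.

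**Figure D3:**
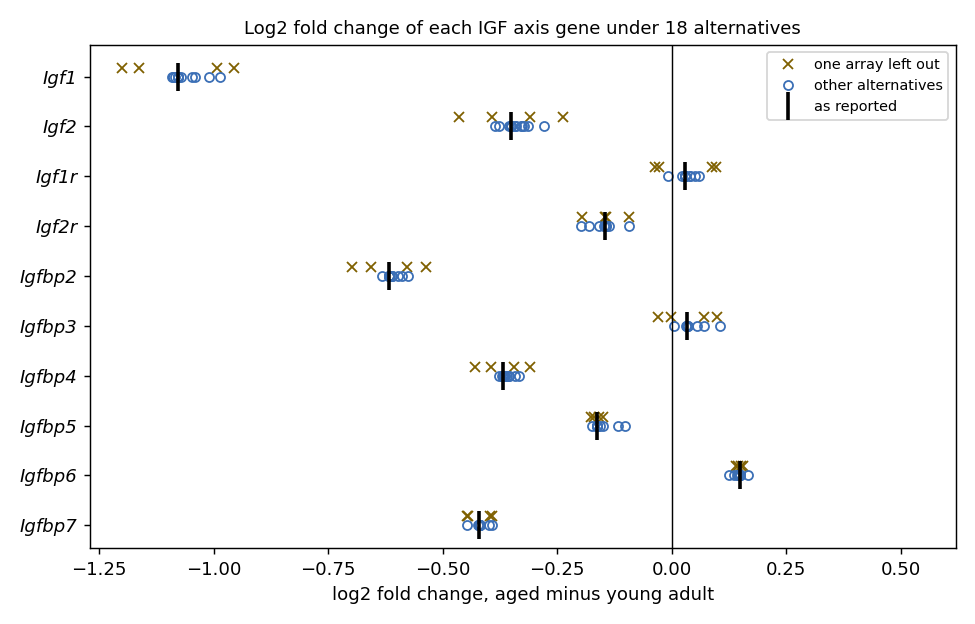
Log2 fold change (aged minus young adult, x axis) of each IGF axis gene as reported (black bars), with 1 array left out (crosses) and under the other alternatives of processing (open circles). *Igf1* stayed between -1.20 and -0.96, while *Igf1r* and *Igfbp3* lay on either side of 0.

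The question of whether the rest of the pathway moved with these genes was addressed with 69 further genes. Of these, 2 (2.90%) were called lower in aged mice, *Stat5b* and *H19*, and 0 higher, against 2.33% and 1.65% of all genes, and 60 were well above background on all arrays. The median log2 fold change was -0.04, and 39 genes lay below 0. Both aged arrays were below both young adult arrays for 19 of the 69 genes (27.5%) and above them for 17 (24.6%), shares near the 21.8% and 24.2% of all genes.

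In the growth hormone input, which drives *Igf1* transcription through the growth hormone receptor, JAK2 and STAT5B, 1 of 6 genes was called. *Stat5b*, the transcription factor of this input, was at 2279 and 2290 in young adult mice and at 1690 and 1699 in aged mice, so that each age was nearly without spread. Its log2 fold change was -0.43 (SE 0.07, FDR = 0.234, limma). *Ghr*, the growth hormone receptor, was at 717 and 753 against 507 and 552, and it missed the threshold narrowly (log2 fold change -0.47, FDR = 0.252). Its 3 probes gave -0.38, -0.63 and -0.41 on the log2 scale, and the second of these passed the test over all probes (FDR = 0.227). *Stat5a* had a log2 fold change of -0.24 (FDR = 0.591), and *Jak2*, *Socs2* and *Cish* lay between -0.12 and 0.08. The higher level of *Gh* in the aged pools, given above, moved in the other direction than *Igf1*, and its part in these results was not tested.

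*H19*, a noncoding RNA imprinted together with *Igf2* and transcribed from the opposite parental copy, was at 426 and 475 in young adult mice and at 268 and 204 in aged mice. Its log2 fold change was -0.94 (SE 0.18, FDR = 0.248, limma), with -0.74 and -1.15 from its 2 probes. The difference was -0.67 within the shared slide and -1.22 between the other slides, a wider gap than for any of the 3 called IGF axis genes. Of the IGF2 mRNA-binding protein genes, *Igf2bp1* had a log2 fold change of -0.30 with both aged values lower and 3 arrays well above background, *Igf2bp2* had -0.09, and *Igf2bp3*, with one of its 2 probes not detected, had -0.10. *Plagl1*, an imprinted gene known to regulate imprinted loci, had 0.12, and none of these 4 genes passed the test.

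The insulin ligands and the other binding proteins were hardly detected. *Igfbp1*, *Igfals*, which encodes the subunit that stabilizes IGF complexes in blood, and *Igfbpl1* did not stand well above background on any array, nor did *Ins2*, while *Ins1* did so on 2 arrays. Among proteases that release IGFs from binding proteins and their inhibitors, 0 of 7 genes were called. *Pappa*, which cleaves IGFBP-4, had a log2 fold change of 0.02, *Htra1* had -0.33 (FDR = 0.365) and *Mmp19* had -0.23. A probe of *Mmp19* was well above background on only 1 array. The probes of *Pappa2* disagreed, as seen after its values were known. One was at 222 and 225 in young adult mice and at 107 and 114 in aged mice (log2 fold change -1.02, FDR = 0.166 over all probes), whereas the other gave no signal well above background on any of the arrays, and their average was not called (FDR = 0.774).

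Downstream of the receptors, 0 genes were called in the insulin receptor family (2 genes), the receptor adaptors (9), the PI3K-Akt arm (13), the mTOR and FoxO arm (14) and the Ras-ERK arm (8). *Grb10*, an imprinted adaptor that dampens receptor signaling, was at 135 and 140 in young adult mice and at 85.4 and 103 with age (log2 fold change -0.55, FDR = 0.286, limma). *Insr*, the insulin receptor, had a log2 fold change of 0.30 (FDR = 0.311), and *Rictor*, a subunit of an mTOR complex, had 0.34 (FDR = 0.284). The arrays of these 3 genes did not overlap between ages, but none passed the test. *Irs1*, a main adaptor of the IGF-1 receptor, had a log2 fold change of -0.25, *Inpp5d* had -0.27, *Mapk3* had -0.28, and *Hras* had -0.27. A probe of *Hras* was not well above background on any array. The medians were -0.10 for the adaptors, -0.05 for the PI3K-Akt arm, 0.0073 for the Ras-ERK arm, 0.04 for the mTOR and FoxO arm and 0.07 for the insulin receptor family.

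**Figure D4:**
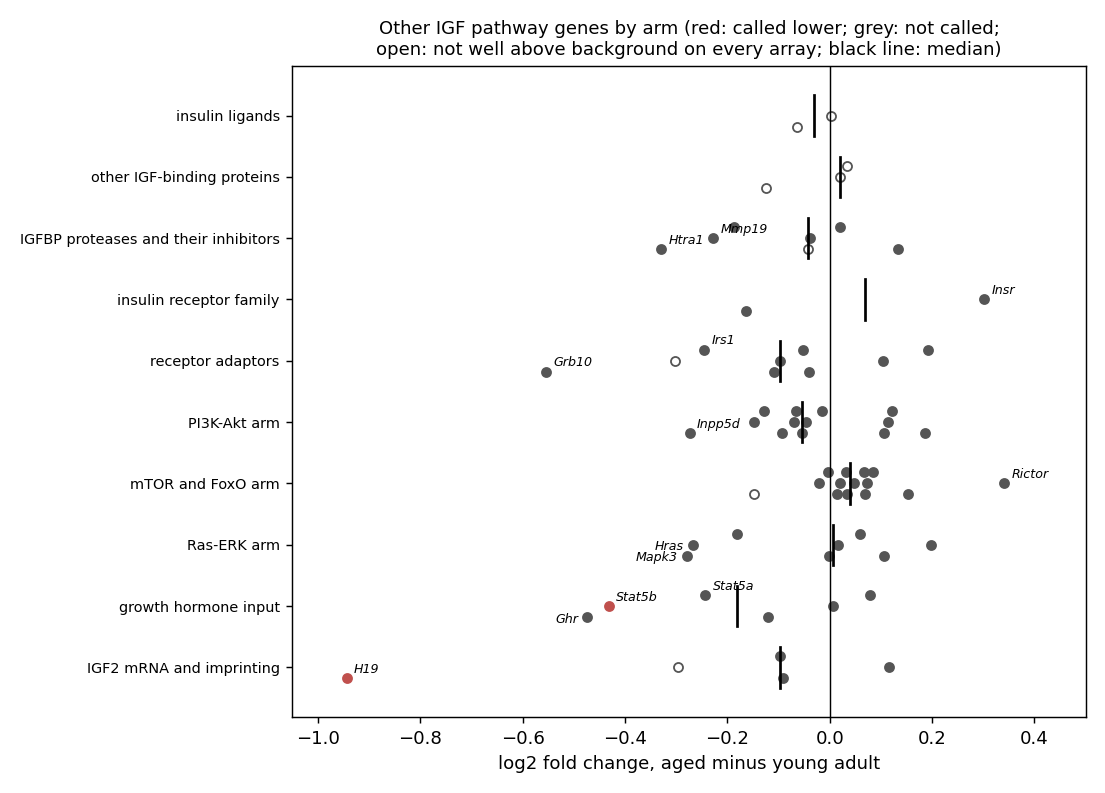
Log2 fold change (aged minus young adult, x axis) of the 69 other IGF pathway genes by arm, 1 point per gene. *Stat5b* (-0.43) and *H19* (-0.94) are the called genes, and the medians (black lines) of the PI3K-Akt and mTOR-FoxO arms are at -0.05 and 0.04.

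Markers of several cell types of the mucosa moved with the downregulated IGF axis genes. Of 8 fibroblast markers, 4 were called lower and 0 higher, with a median log2 fold change of -0.49. For this and the lists below, 2.33% of all genes were called lower, and the median of all genes was 0.01. Among genes with a probe well above background on all arrays, 3.07% were called lower. The summed level of the 8 fibroblast markers was 229225 to 253638 on the young adult arrays and 122131 to 129758 on the aged arrays. *Col1a2*, *Dcn* and *Col1a1* were its largest parts, at 99626, 79509 and 39301 on the first young adult array. The calls were collagen genes and the matrix proteoglycan gene *Lum* (*Col1a1* -1.98, *Col3a1* -1.97, *Col1a2* -1.52 and *Lum* -0.70), whereas *Pdgfra*, *Dcn* and *Thy1* had log2 fold changes of -0.29, -0.19 and 0.03 and were not called.

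Of 7 osteoblast markers, 5 were called lower (median -0.87), and their sum ranged from 7872 to 8004 in young adult mice and from 4030 to 4167 in aged mice. Among the defining genes, *Bglap* had a log2 fold change of -0.94 and *Ibsp* of -1.09. Of 8 endothelial markers 4 were called lower (median -0.47), with sums of 12865 to 13072 and 9036 to 9248, and *Emcn* had a log2 fold change of -0.78. Of 8 macrophage markers 3 were called lower (median -0.41), with sums of 10711 to 11166 and 8481 to 8489, and *Cd68* had a log2 fold change of -0.78.

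Further lists also held calls. The Schwann and ensheathing cell list had 4 of 8 genes called lower (median -0.50, summed level 36733 to 37541 in young adult and 25815 to 27315 in aged mice). The smooth muscle list had 3 of 8 (median -0.29, 54852 to 56779 and 53859 to 55056), and the cartilage list 2 of 6 (median -0.30, 3945 to 4139 and 2631 to 2705). In the smooth muscle list 6 genes had a log2 fold change below 0. *Tagln* was among them at -0.0051, while *Rgs5* and *Des* were at 0.17 and 0.14, and none of these was called. The part of any of these cell types in the levels of *Igf1*, *Igfbp2* and *Igfbp7* was not tested.

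The epithelial lists differed in direction. Over all genes, both aged arrays were above both young adult arrays for 24.2% and below them for 21.8%. Of all genes, 1.65% were called higher. The 7 mature ORN markers all had higher values on both aged arrays, with 1 call (*Stoml3*, log2 fold change 0.43) and a median of 0.15. The 7 sustentacular markers had a median of 0.13 with 1 call higher, *Cyp1a2*. The 6 immature ORN markers all had lower values on both aged arrays (median -0.36) with 1 call, *Dpysl3*, and the 8 basal and progenitor markers had 2 calls lower, *Krt5* and *Kit* (median -0.30). The 7 gland markers were mixed, with 2 called higher and 1 lower. All of these lists were well above background on all 4 arrays.

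**Figure D5:**
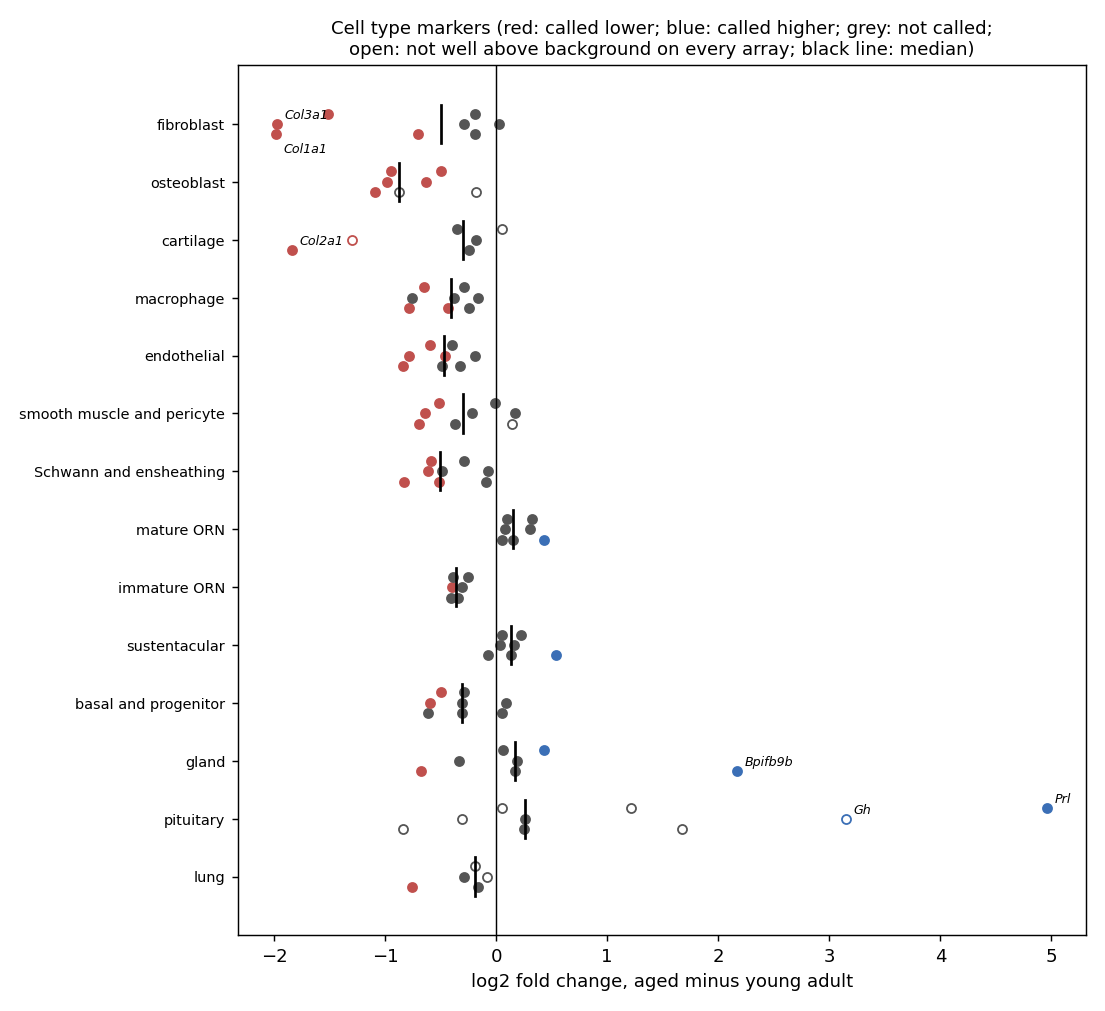
Log2 fold change (aged minus young adult, x axis) of the cell type markers, 1 point per gene and 1 line of points per list. Fibroblast, osteoblast, endothelial and macrophage medians lie between -0.87 and -0.41, mature ORN and sustentacular medians are at 0.15 and 0.13, and the pituitary gene *Prl* is at 4.96. Open points, *Gh* among them, were not well above background on every array, and the position of *Gh* is a lower bound (at least 3.15).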

How the data were processed

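The authors pooled total RNA of 5 mice per array, hybridized it with one dye to Agilent SurePrint G3 Mouse arrays and extracted spots with Feature Extraction 11.0.1.1. The deposited intensity columns used here are the median spot signal and the median local background, not normalized between arrays. The deposited series table equalled the scanner's processed intensity for all 62976 spots of each array, so it served only as an alternative signal.

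Background was corrected with normexp (offset 0, limma 3.58.1, R 4.3.3). The study's methods name background correction but no offset. Control and outlier spots were left out, spots of a probe averaged, log2 values quantile normalized, and probes of a gene averaged. Accessions were matched without versions to a RefSeq table of GRCm38.p6 (32994 of 56605 probes, 58.3%). The array design uses another build, so no probe was placed on the genome.

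Ages were compared with limma (lmFit, eBayes, no covariate) over 45604 genes. Calls needed *P* below 0.05 and FDR below 0.25, as in the study's methods. An exact permutation test of 2 against 2 arrays cannot go below 0.333 and was not used. The number of arrays limits the precision.

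All 10 genes and their probes are named. Of the 69 other pathway genes, those called and the 12 with the largest absolute log2 fold change among those well above background on all arrays are named. One of these is not reported here. The genes and lists were chosen with earlier results of these data known. Alternatives covered the background, signal, normalization, dim probes, averaging of probes, variance trend, replicate block, slide, thresholds and leaving out each array.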

Additional observations from a re-analysis of the deposited data

How the results depend on the processing

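The log2 fold changes of 8 of the 10 genes kept their sign under all 18 alternatives. *Igf1* ranged from -1.20 to -0.96, *Igfbp2* from -0.70 to -0.54 and *Igfbp7* from -0.45 to -0.39. The exceptions were *Igf1r*, at -0.0072 with the most intense probe, -0.027 without the second young adult array and -0.037 without the first aged array, and *Igfbp3*, at -0.00043 without the first young adult array and -0.030 without the second aged array. The median of all genes moved by at most 0.06 between scalings (0.07 against 0.01).

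The counts of calls depended on the settings. The 3 IGF axis genes called lower became 5 with a normexp offset of 50 and with dim probes left out, where *Igf2* and *Igfbp4* were added, and 7, with 1 called higher, with an intensity trend in the variance. The count was 4 with an offset of 16, no background correction, quantile-normalized processed signal, the most intense probe or linear averaging. It fell to 2 when either signal was scaled to the 75th percentile. Calls over all genes rose in the same settings, from 2.33% lower to 5.43% with an offset of 50, 12.6% with dim probes left out and 7.71% (7.92% higher) with the trend. The share called lower was 3.71% with an offset of 16, 4.91% with no background correction and 5.14% with quantile-normalized processed signal. It was 3.02% with cyclic loess, 3.09% with the most intense probe and 3.51% with linear averaging. At the 75th percentile it was 1.81%, and 1.89% in the processed signal. The 3 called probes became 5 with an offset of 16 or cyclic loess, 6 with an offset of 50, no background correction, quantile-normalized processed signal or dim probes left out, and 8, with 1 higher, with the trend. With the processed signal at the 75th percentile, 2 probes were called. Shares over all probes were counted only for the fit as reported. Of the other pathway genes, the 2 called lower became 4 with an offset of 16, no background correction or linear averaging, 7 with an offset of 50, 6 with quantile-normalized processed signal, 9 with dim probes left out or the trend, 3 with cyclic loess or the most intense probe, 1 with the 75th percentile or the expression and fold limits, and 0 with the processed signal at the 75th percentile. The 0 called higher became 1 with either offset, 2 with no background correction or dim probes left out, 3 with quantile-normalized processed signal and 4 with the trend. Over all genes, the share called higher rose from 1.65% to 2.85% and 4.62% with offsets of 16 and 50. It was 3.92% with no background correction, 11.7% with dim probes left out and 4.45% with quantile-normalized processed signal. At an FDR below 0.05 or 0.10, 0 genes or probes of any of these groups were called. The smallest FDR of any gene on the array was 0.0945 (limma). No gene of any kind could therefore be called at 0.05, so the gene counts at that limit are not particular to the IGF genes. At 0.10 a gene could be called, and the share of all genes called at that limit was not counted. Leaving out 1 array also gave 0 calls in each group, and no gene of the array was called (smallest FDR 0.404 to 0.683). These fits assume that the lone array varies like the other age. The cause of these shifts was not tested.

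The replicate numbers of the labels only name the arrays, and deviations of same-numbered arrays correlated at -0.08. With the replicate block, 0 IGF axis genes, 0 probes and 0 other pathway genes were called (smallest FDR of any gene 0.433). The slide as a random block could not be fitted, since 4 arrays on 3 slides gave no estimate of the correlation.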
